A study of Mus musculus with 6 samples.

Results

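Nkx2-3, Nkx2-5, Tlx1, Tcf21 and Barx1 encode transcription factors known for building or patterning the spleen. They were chosen by name, as 5 of the 23337 genes in the deposited expression table, and all 5 were found there. The libraries came from CD31+ CD45- cells, a gate for endothelium, sorted from spleens digested with collagenase. The mutant mice were Stab1-/- (KO, 3 libraries), which lack the scavenger receptor stabilin-1, also called Clever-1. The others were wild type (WT, 3 libraries). All libraries were labelled strain C57BL/6, and the labels give neither age, sex nor allele design. They do not say whether libraries stand for separate mice, so the spread behind each p-value is that between libraries and may be technical. The study addresses how stabilin-1 bears on contacts between spleen vessels and lymphocytes. Libraries carry the numbers of their data columns (KO 2, KO 3, KO 4, WT 1, WT 3 and WT 4), which are not the replicate numbers of the labels. Levels are RPKM, reads per kilobase of gene scaled to library depth, so they can be set against each other between genes.

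The spleen forms from mesenchyme beside the stomach and pancreas. In mice, Tlx1 (also called Hox11), a homeobox factor, and Tcf21 (also called Pod1 or capsulin), a basic helix-loop-helix factor, are each required for the organ to form, and Barx1, a homeobox factor of stomach mesenchyme, promotes its growth. Nkx2-5, the NK2 homeobox factor best known from the heart, is expressed in the spleen primordium, and Nkx2-3, its close relative, is needed for a normal spleen and for the adhesion molecule MAdCAM-1 on its vessels. These roles come from whole embryos and adult mice, and most of them concern mesenchyme rather than endothelium.

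Depth was 40420819 to 51679133 reads counted to genes per library, recovered from the deposited values. Stab1, the deleted gene, was at 2.32, 2.62 and 2.49 RPKM in KO libraries, against 21.6, 43.6 and 31.4 RPKM in WT libraries (log2 fold change -3.40 ± 0.22 SE, limma adjusted p = 7.15e-05). The gene Nt5dc2 overlaps Stab1 on the other strand. The kit used keeps no strand information, so reads in that overlap cannot be assigned by strand. Pecam1, which encodes the CD31 of the gate, was at 329 to 360 RPKM in KO and 273 to 326 RPKM in WT libraries, and Ptprc, which encodes CD45, at no more than 0.110 RPKM in any library. Markers of mesenchymal cells were not absent. The 18 fibroblast and reticular genes examined summed to 170 to 216 RPKM in KO and 185 to 443 RPKM in WT libraries. The 12 pericyte and smooth muscle genes summed to 699 to 811 RPKM in KO and 643 to 959 RPKM in WT libraries. Both sums rest largely on a few high genes. Of the pericyte list, Acta2 was at 184 to 241 RPKM in KO and 160 to 320 RPKM in WT libraries. Cspg4 of that list was at 0.830 to 1.63 RPKM in KO and 0.623 to 1.27 RPKM in WT libraries. Of the fibroblast list, Mgp was at 42.8 to 56.0 RPKM in KO and 65.2 to 127 RPKM in WT libraries. Pdgfra was at 0.467 to 0.501 RPKM in KO and 0.416 to 0.605 RPKM in WT libraries. In bulk samples such as these, fewer cells of a type and less RNA per cell cannot be told apart.

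Nkx2-3 dominated the group. It had 205, 214 and 198 RPKM in KO libraries 2, 3 and 4, against 194, 174 and 181 RPKM in WT libraries 1, 3 and 4, from 17064 to 22958 reads per library. Its mean level ranked 406 of the 23337 genes. The gene lies on chromosome 19 (43612325 to 43615892, plus strand, GRCm38) in 2 exons, and no other GENCODE gene overlaps it. The 3 KO values were all above the 3 WT values, but the gap was small: 206 ± 7.76 RPKM in KO and 183 ± 10.2 RPKM in WT libraries (SD, n = 3 each), a log2 fold change of 0.17 ± 0.09 SE.

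That difference did not pass the test. The limma adjusted p was 0.369, and the 95% interval of the fold change ran from 0.985 to 1.29. An exact two-sided permutation test over the 20 assignments of 3 and 3 libraries gave p = 0.1, the smallest that this design allows. Of all 11035 genes tested, 20.3% had groups that did not overlap, 10.7% with KO higher and 9.57% with KO lower, so a gap of this kind was common. The sign stayed positive in 14 alternative analyses, with log2 fold changes of 0.09 to 0.21 and adjusted p of 0.281 or more. Because all KO values were above all WT values, most of these could not change the sign. Those alternatives left libraries out or changed the pseudocount, minimum level or variance setting.

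**Figure D1:**
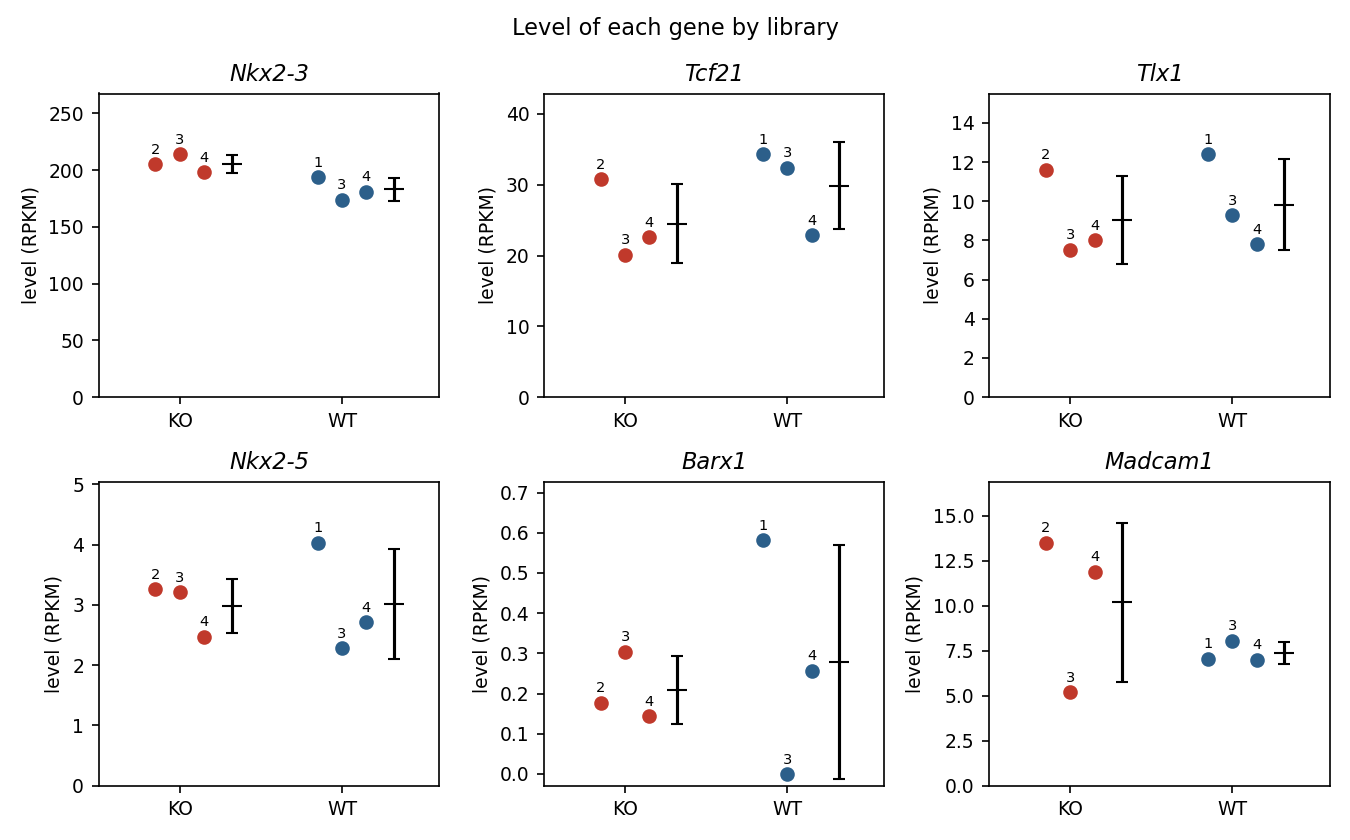
Level in RPKM (vertical axis) of the 5 transcription factor genes and of Madcam1 in KO (red, left) and WT (blue, right) libraries, with library numbers above the points and the mean ± SD (n = 3) as black bars. Nkx2-3 sits between 174 and 214 RPKM in every library, while Barx1 is under 0.6 RPKM throughout and listed at 0 in WT 3.

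Among homeobox genes Nkx2-3 stood at the top. Of 216 homeobox genes recognised by symbol, 52 were high enough to test and 81 were listed at 0 in every library. Nkx2-3 averaged 194 RPKM over the 6 libraries, and the next, Hoxa5, averaged 35.0 RPKM, with ranges that did not overlap (174 to 214 and 28.6 to 43.6 RPKM). Nkx2-3 alone made up 28.8% of the summed RPKM of these 216 genes. Hoxb7 (34.3 RPKM), Hlx (34.0), Hhex (33.9), Meox1 (26.4), Prox1 (24.7), Cux1 (22.3), Tgif1 (22.0) and Hoxb2 (20.6) completed the 10 highest. Hhex is a factor of early endothelium, and Prox1 the factor that specifies lymphatic endothelium. In the same order Tlx1 was at rank 17, Nkx2-5 at rank 36 and Barx1 at rank 65. None of the 52 tested homeobox genes was called in limma, and 2 had an unadjusted p under 0.05. Over all 11035 genes tested, 1737 or 15.7% had such a p, the share against which this and the later counts of this kind stand.

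**Figure D2:**
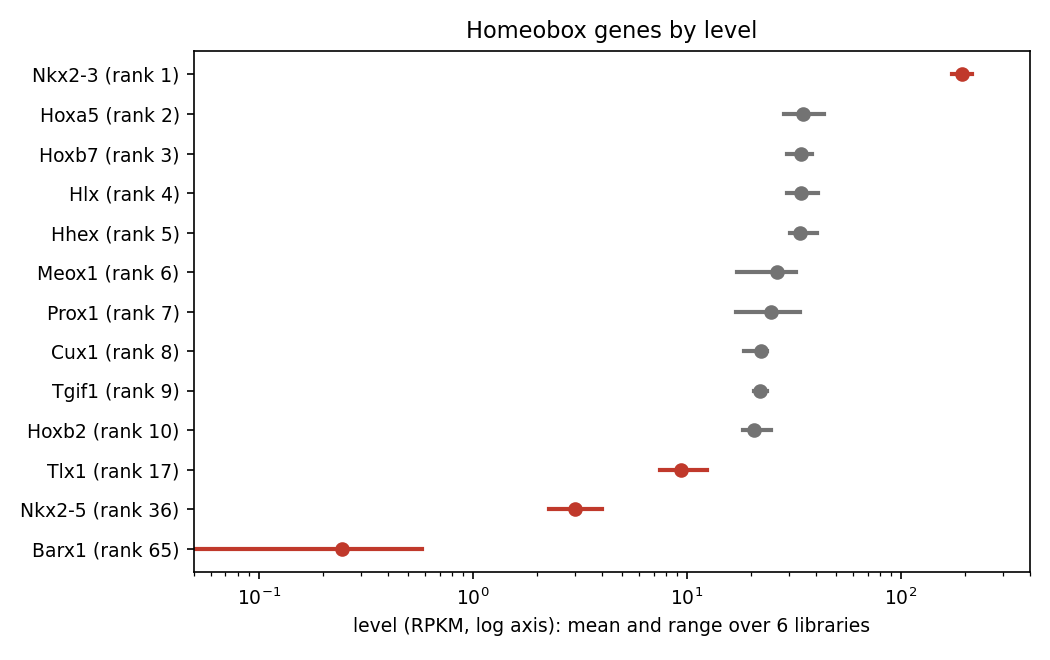
Mean level (point) and range over the 6 libraries (line) in RPKM on a log axis for the 10 homeobox genes of highest level and for the homeobox members of the group (red). Nkx2-3 lies apart at 194 RPKM, and the line of Barx1 runs to the left edge because WT 3 is listed at 0.

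Nkx2-5 was present at a low level and did not separate the genotypes. It had 3.26, 3.21 and 2.47 RPKM in KO libraries, against 4.03, 2.28 and 2.71 RPKM in WT libraries, from 154 to 256 reads. The highest and the lowest value were both WT, so the KO range lay inside the WT range. The log2 fold change was 0.01 ± 0.22 SE (limma adjusted p = 0.983, 95% interval of the fold change 0.720 to 1.41). Nkx2-3 exceeded Nkx2-5 in 6 of 6 libraries, by 48.1-fold to 80.2-fold. Nkx2-5 lies on chromosome 17 (26838664 to 26845009, minus strand, GRCm38).

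The rest of the NK homeobox relatives were near or at 0. Of 11 others in the table, 4 were listed at 0 in every library, and the highest value of any was 1.18 RPKM, that of Nkx3-2 in WT 1. Nkx3-2 (also called Bapx1) is itself required for spleen formation in mice. It had 0.630, 0.657 and 0.358 RPKM in KO libraries, against 1.18, 0.977 and 0.609 RPKM in WT libraries, groups that overlapped. It did not reach the minimum level for the main test, and without that minimum its adjusted p was 0.434 (limma, log2 fold change -0.43 ± 0.21 SE).

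The 250 bases before the start of 3 genes are given to show the promoters of the NK2 relatives, which differed widely in level, and that of Madcam1, which depends on Nkx2-3 in the mouse spleen. Whether these windows bear on the levels was not tested. They are RefSeq sequences on GRCm38.p6, written 5′ to 3′ on the strand of the gene. Capitals mark the letters AAGTG, the core that NK2 factors are known to bind, and a kappaB-like pattern, which is GGGAA, then any 3 bases, then CC. Both were searched on both strands and do not overlap here, and all patterns were chosen after the sequences were seen. The starts used are those of RefSeq, and that of Nkx2-5 lies inside the longer GENCODE gene. The same holds for Tlx1, Tcf21 and Barx1, whose windows are described but not printed.
Nkx2-3, chr19:43612075-43612324, plus strand: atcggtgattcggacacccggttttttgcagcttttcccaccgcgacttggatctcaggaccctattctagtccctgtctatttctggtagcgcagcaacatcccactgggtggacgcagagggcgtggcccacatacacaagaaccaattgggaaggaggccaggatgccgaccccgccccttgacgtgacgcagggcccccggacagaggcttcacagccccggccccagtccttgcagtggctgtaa
Nkx2-5, chr17:26841566-26841815, minus strand: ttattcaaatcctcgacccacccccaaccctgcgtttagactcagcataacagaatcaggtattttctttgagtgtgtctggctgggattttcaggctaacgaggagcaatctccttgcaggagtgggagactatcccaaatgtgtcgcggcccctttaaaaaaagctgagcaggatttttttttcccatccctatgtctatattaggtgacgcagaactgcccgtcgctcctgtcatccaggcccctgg
Madcam1, chr10:79664309-79664558, plus strand: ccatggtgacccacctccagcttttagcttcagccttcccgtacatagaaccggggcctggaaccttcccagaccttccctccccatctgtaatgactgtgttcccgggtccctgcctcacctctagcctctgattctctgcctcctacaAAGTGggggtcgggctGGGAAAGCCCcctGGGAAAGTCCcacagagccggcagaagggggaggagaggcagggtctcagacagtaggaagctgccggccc
In the Madcam1 window AAGTG began 100 bases before the start, and the kappaB-like pattern began 84 and 71 bases before it. AAGTG was in 40.7% and the kappaB-like pattern in 4.94% of 32851 RefSeq windows of the same length, so the AAGTG match is a common one. Neither pattern was in the window of any of the 5 transcription factor genes. CCAAT, a box found in many promoters, was there on either strand in 2 places for Nkx2-3, 1 on each strand in overlapping letters, and in 1 place for Tlx1, against 33.8% of all windows with a match. The Barx1 window was 85.6% G or C with 40 CpG pairs, that of Tlx1 62.0% with 15 and that of Nkx2-3 60.0% with 14. Nkx2-5 had 49.2% with 8 and Tcf21 52.4% with 5. The median of all windows was 52.4% with 6 CpG pairs. Of the 5 transcription factor genes, Barx1 had the lowest level and the most CpG pairs.

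Tcf21 was the next highest of the 5. It had 30.8, 20.1 and 22.6 RPKM in KO libraries, against 34.3, 32.4 and 22.9 RPKM in WT libraries, from 1130 to 2012 reads. KO 2 lay among the high WT values and WT 4 among the low KO values, so the groups overlapped. The log2 fold change was -0.28 ± 0.19 SE (limma adjusted p = 0.486), and the 95% interval of the fold change ran from 0.612 to 1.10. Tcf21 lies on chromosome 10 (22817281 to 22820174, minus strand, GRCm38). An annotated antisense gene, Gm10824, spans it on the other strand, and the kit used keeps no strand information. Reads of the 2 genes therefore cannot be separated.

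Tlx1 followed, with 11.6, 7.53 and 8.0 RPKM in KO libraries, against 12.4, 9.30 and 7.80 RPKM in WT libraries, from 663 to 1171 reads. WT 1 and KO 2 were high and the other libraries lower in both genotypes. The log2 fold change was -0.11 ± 0.21 SE (limma adjusted p = 0.811, 95% interval of the fold change 0.668 to 1.28), and it turned to 0.06 without WT 1. Tlx1 lies on chromosome 19 (45150680 to 45156943, plus strand, GRCm38), 1.53 Mb from Nkx2-3, and the antisense gene Tlx1os overlaps it. Reads in that overlap cannot be assigned by strand either. Of the 27 protein-coding genes of the table between Nkx2-3 and Tlx1, 16 were tested and 0 were called in limma, with 5 at an unadjusted p under 0.05. The nearest, Kazald1, lies 71.4 kb before Tlx1 at 27.2 RPKM in KO and 31.9 RPKM in WT libraries. On the other side Lbx1, a homeobox gene of muscle precursors and spinal cord, was at 0.160 RPKM or less 75.7 kb away.

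Barx1 was at the limit of detection. It had 0.177, 0.304 and 0.144 RPKM in KO libraries, against 0.581, 0 and 0.257 RPKM in WT libraries, from 12, 21 and 8 reads in KO and 33, 0 and 16 reads in WT libraries. The count of 0 in WT 3 allows up to 3 reads, or 0.0436 RPKM, by counting error alone. Both extremes were WT libraries, and every KO value lay between them. Barx1 did not reach the minimum level for the main test, and without it the log2 fold change was -0.07 ± 0.27 SE (limma adjusted p = 0.921). An exact permutation test gave p = 0.9. The authors' deposited table lists a log2 fold change of 1.10 for Barx1 beside group means of 0.208 RPKM in KO and 0.280 RPKM in WT libraries, opposite signs, with an adjusted p of 0.722. With a pseudocount of 0.01, tried after that was seen, the difference became 0.84, because the library at 0 then weighs most. Barx1 lies on chromosome 13 (48662998 to 48666507, plus strand, GRCm38).

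No member passed the test between KO and WT libraries. Of the 4 tested, 0 were called in limma, 0 had an unadjusted p under 0.05 and 0 were called in voom, against 1.94% of all 11035 genes called (0.671% higher and 1.27% lower in KO). The median log2 fold change of the 4 was -0.05, beside 0.03 for all genes tested. The intervals of Nkx2-5 and Tlx1 include differences of moderate size in either direction. In simulated data the fit recovered 38% of genes changed 1.5-fold and 84% of those changed 2-fold. These are averages over genes whose reads were drawn independently of each other, so recovery may differ for single members. The authors' deposited table gives log2 fold changes of 0.17 for Nkx2-3, 0.04 for Nkx2-5, -0.11 for Tlx1 and -0.29 for Tcf21, with adjusted p of 0.401 or more. The order of the levels, Nkx2-3, Tcf21, Tlx1, Nkx2-5 and Barx1, was the same in 6 of 6 libraries, and no neighbours in that order had overlapping ranges.

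**Figure D3:**
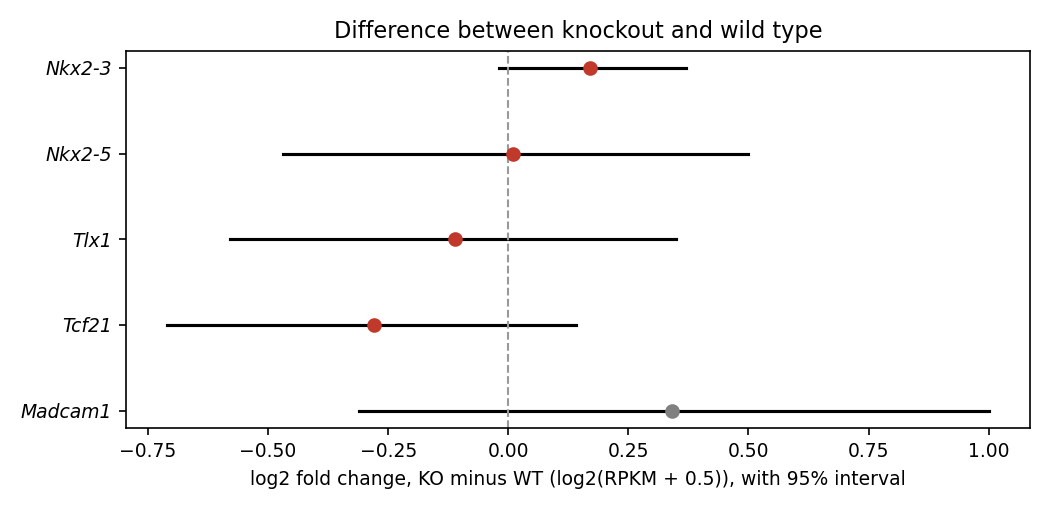
Log2 fold change, KO minus WT, on the log2(RPKM + 0.5) scale (horizontal axis) with its 95% limma interval for the 4 tested members (red) and Madcam1 (grey). Every interval crosses 0, and that of Nkx2-3, from -0.02 to 0.37, is the shortest of the 5.

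Madcam1, whose vessel expression in the mouse spleen depends on Nkx2-3, was set beside Nkx2-3 across libraries. It had 13.5, 5.19 and 11.9 RPKM in KO libraries, against 7.06, 8.06 and 7.0 RPKM in WT libraries. KO 3 had the lowest Madcam1 value and the highest Nkx2-3 value of the 6. The WT libraries were close together, and the KO libraries lay on both sides of them. The log2 fold change was 0.34 ± 0.29 SE (limma adjusted p = 0.586), 0.75 without KO 3 (adjusted p = 0.117) and 0.10 without KO 2 (adjusted p = 0.939), so single KO libraries set its size. Over the 6 libraries Pearson's r between Nkx2-3 and Madcam1 was 0.05 (exact permutation p = 0.943, 0.989 adjusted over 11 relations) and Spearman's rho -0.03 (p = 1.0). Without WT 3 and KO 3, the libraries farthest from the median of Nkx2-3, r was 0.85, so the value rests on those libraries. The r of deviations from the group means was -0.55. From its lowest to its highest library Nkx2-3 varied only 1.23-fold, so these values cannot show whether Madcam1 follows it. Nkx2-3 exceeded Madcam1 in level by 15.2-fold to 41.2-fold.

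Of 17 vascular address genes around Nkx2-3, which cover adhesion molecules, chemokines and the enzymes of L-selectin ligands, 11 were tested, 0 rose and 1 fell, against 1.94% of all genes called. An unadjusted p under 0.05 was found for 3 of them, Cxcl13, Glycam1 and Icam2. The fall was that of Cxcl13, the B cell chemokine of follicles, with 19.1, 14.2 and 14.6 RPKM in KO libraries, against 76.0, 67.6 and 43.7 RPKM in WT libraries (log2 fold change -1.91 ± 0.20 SE, limma adjusted p = 0.00159). It held in all 14 alternatives, at an adjusted p of 0.0301 or less. Nkx2-3 was not lower in the KO libraries, and whether it bears on Cxcl13 was not tested. Glycam1, a mucin that L-selectin binds on lymph node vessels, had 3.25, 11.4 and 4.74 RPKM in KO libraries, against 2.19, 0 and 0.0350 RPKM in WT libraries (limma adjusted p = 0.0596, 0.00503 without WT 1 and up to 0.232 over the alternatives). Gcnt1, an enzyme that builds branched O-glycans, was under the minimum level with 0.0882, 0.0986 and 0.322 RPKM in KO libraries, against 0.912, 0.616 and 0.572 RPKM in WT libraries (adjusted p = 0.134 without the minimum). Chst4, which sulphates those ligands, stayed at or under 0.3 RPKM. Of 13 genes of lymphotoxin and TNF signalling, an input that Madcam1 is known to need, all were tested and 0 were called in limma, with 1 at an unadjusted p under 0.05. That gene was Chuk, the kinase of the noncanonical NF-kappaB path, with 14.9, 12.1 and 19.6 RPKM in KO libraries, against 20.8, 21.6 and 24.6 RPKM in WT libraries (adjusted p = 0.178). Ltbr, the lymphotoxin beta receptor gene, was at 57.1 to 70.5 RPKM in KO and 54.6 to 66.3 RPKM in WT libraries.

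The partners with which these factors build the spleen gave no call. Of 15 in the table, 7 reached the minimum level and were tested and 0 were called in limma, with 0 at an unadjusted p under 0.05. Their median log2 fold change was -0.12, beside 0.03 for all genes. Pbx3, a homeobox cofactor, averaged 5.25 ± 1.12 RPKM in KO and 5.33 ± 0.194 RPKM in WT libraries, and Meis1, another cofactor, 3.95 ± 0.623 RPKM in KO and 3.89 ± 0.327 RPKM in WT libraries (SD, n = 3 each). Gata6, named after its values were seen, was the highest partner, at 41.5 ± 3.37 RPKM in KO and 43.4 ± 3.36 RPKM in WT libraries.

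Wt1 was the partner with the widest gap between genotypes among those named. It encodes a zinc finger factor of mesothelium and mesenchyme that mice need to keep a spleen. It had 0.377, 0.165 and 0.309 RPKM in KO libraries, from 58, 26 and 39 reads, against 1.05, 1.06 and 0.913 RPKM in WT libraries, from 135, 165 and 129 reads. All KO values were below all WT values. The gene missed the minimum of 1 RPKM in 3 libraries and so was not part of the main test. With a minimum of 0.1 RPKM it was called (log2 fold change -0.95 ± 0.17 SE, limma adjusted p = 0.0281), and with no minimum it was not (adjusted p = 0.0603). An exact permutation test gave p = 0.1, the smallest possible. Wt1 also marks mesothelium. Of the 9 other mesothelial markers, 6 were listed at 0 in WT 3, where Wt1 was at 1.06 RPKM, among them Msln, Upk3b and Krt19, while Efemp1 was at 5.06 and Gpm6a at 1.0 RPKM there. Gpm6a was, like Wt1, lower in every KO than in every WT library, with 0.820, 0.614 and 0.889 RPKM in KO libraries, against 3.89, 1.0 and 1.75 RPKM in WT libraries. The part of mesothelial cells in the Wt1 difference was not tested.

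Relatives of the other members were sparse. Tlx2, Tlx3 and Barx2 did not exceed 0.014 RPKM in any library. Twist1, a basic helix-loop-helix factor of mesenchyme, was at 19.2 ± 0.0907 RPKM in KO and 17.9 ± 0.633 RPKM in WT libraries (SD, n = 3 each, limma adjusted p = 0.673), a level between those of Tcf21 and Tlx1. Msc, the closest relative of Tcf21, had 1.65, 1.36 and 0.756 RPKM in KO libraries, against 2.85, 2.45 and 1.61 RPKM in WT libraries (log2 fold change -0.68 ± 0.26 SE, adjusted p = 0.248). Of the 3 tested in that list 0 were called in limma, with 1 at an unadjusted p under 0.05.

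Retinoic acid is a pathway that Tlx1 is known to hold in check in the spleen primordium of mice. Of 17 of its genes, 10 were tested and 0 were called in limma, with 1 at an unadjusted p under 0.05. That gene was Dhrs3, an enzyme that lowers the supply of retinal, with 73.4, 84.6 and 74.3 RPKM in KO libraries, against 67.9, 63.4 and 52.3 RPKM in WT libraries (log2 fold change 0.34 ± 0.12 SE, adjusted p = 0.206). Aldh1a2, the enzyme of mesothelium and mesenchyme that makes retinoic acid, ranged widely, at 0.258, 0.295 and 0.0541 RPKM in KO libraries, against 1.6, 0.00873 and 0.503 RPKM in WT libraries. Wnt antagonists, through some of which Barx1 is known to act in the stomach, were low as well. Sfrp1 was at 1.28 to 2.73 RPKM in KO and 1.81 to 2.12 RPKM in WT libraries. Sfrp2, under the minimum level, was at 0 to 0.251 RPKM in KO and 0.0494 to 1.14 RPKM in WT libraries. Of that list 0 of 4 tested genes were called in limma, with 1 at an unadjusted p under 0.05, Dkk2.

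The members split by how they varied from library to library. Nkx2-3 was the steadiest, with a coefficient of variation of 7.72% over the 6 libraries, against 21.3% for Nkx2-5, 22.1% each for Tlx1 and Tcf21 and 80.2% for Barx1. Tlx1 and Tcf21 were high and low in nearly the same libraries, with a Pearson r of 0.89 (exact permutation p = 0.0403) and a Spearman rho of 0.89 (p = 0.0333). After adjustment over the 11 relations examined these were 0.222 and 0.321, so the relation did not pass. Without WT 1 and KO 2, the libraries farthest from the median of Tlx1, r was 0.99, and the r of deviations from the group means was 0.93. Nkx2-5 and Barx1 also had an r of 0.89 (exact permutation p = 0.0167, 0.184 adjusted), which fell to 0.45 without WT 1 and WT 3 and so rests on them. Groups of 3 libraries are too small for an r within a genotype.

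**Figure D4:**
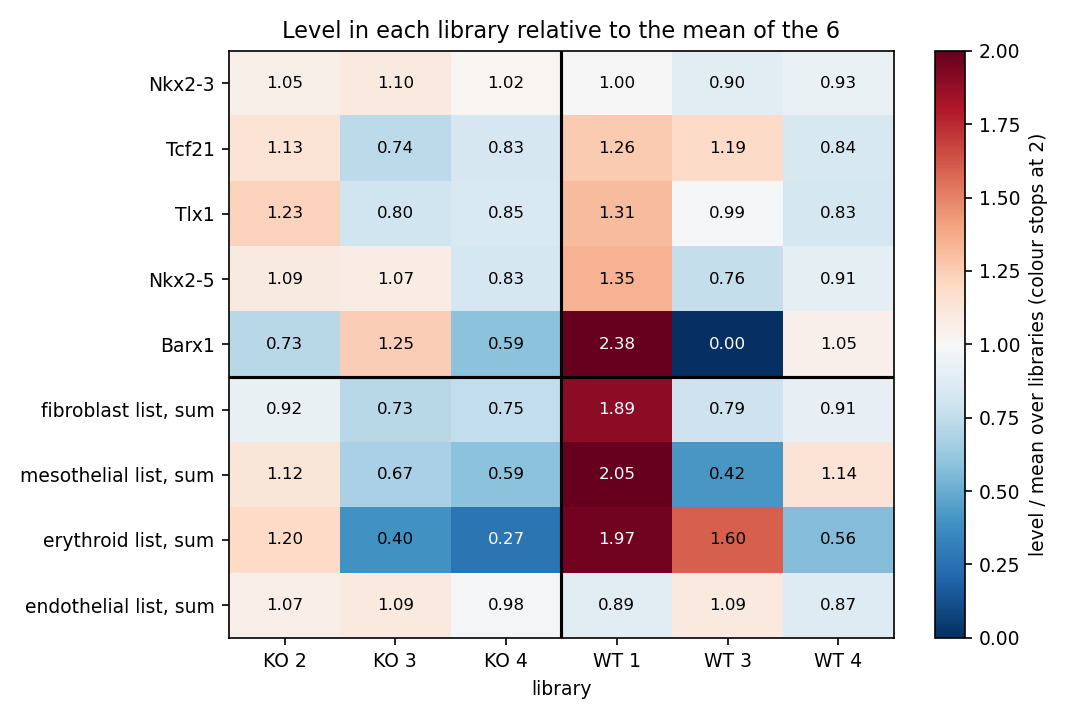
Level of each member and summed level of 4 marker lists in each library (columns, KO left of WT), divided by the mean of the 6 libraries, with red above and blue below 1. Tcf21 and Tlx1 are high in KO 2 and WT 1 but part in WT 3, with Tcf21 at 1.19 and Tlx1 at 0.985. Barx1 is high in WT 1 and at 0 in WT 3, and Nkx2-3 stays within 0.895 to 1.10.

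Markers of other cells were high or low in some of the same libraries as these genes, but not throughout. The 10 mesothelial markers summed to 19.0 RPKM or less in KO libraries, against 34.8, 7.13 and 19.3 RPKM in WT libraries 1, 3 and 4, highest in WT 1 and lowest in WT 3, where 6 of them were listed at 0. Barx1 was likewise highest in WT 1 and at 0 in WT 3. The part of such cells in the level of Barx1 was not tested. The fibroblast and reticular markers summed to 443 RPKM in WT 1, the library with the highest Tcf21 and Tlx1 levels, and to 170 to 216 RPKM in the other 5. In WT 3 Tcf21 was at 1.19 times its mean over the libraries, while the fibroblast sum was at 0.791 times its own. The fibroblast markers differed among themselves as well. They did not move as 1 group: Dcn, a matrix protein gene, had 96.1 RPKM in WT 1 and 3.68 RPKM in WT 3, while Pdgfrb, a growth factor receptor gene of mesenchyme, had 1.98 and 4.69 RPKM and Lepr 4.25 and 5.85 RPKM in those libraries. The part of such cells in the levels of Tcf21 and Tlx1 was not tested. The 8 erythroid markers in the table summed to 55.5, 18.3 and 12.6 RPKM in KO libraries, against 90.9, 74.0 and 26.0 RPKM in WT libraries. KO 2, WT 1 and WT 3 were thus the highest for erythroid markers and for Tcf21 and Tlx1, and the part of erythroid cells in those levels was not tested. Of the erythroid list 0 of 4 tested genes were called in limma, with 1 at an unadjusted p under 0.05. The 12 endothelial identity genes summed to 1950 to 2170 RPKM in KO and 1730 to 2170 RPKM in WT libraries, with 0 called in limma and 2 at an unadjusted p under 0.05. The 12 megakaryocyte and platelet markers summed to 69.0 to 93.8 RPKM in KO and 106 to 303 RPKM in WT libraries, and all 12 had a negative log2 fold change, 5 at an unadjusted p under 0.05. Of these, 1 (Pf4) was called lower and 0 higher (adjusted p = 0.016, up to 0.109 over the alternatives), a call lost with no minimum level and without KO 3 (0.0772). Of 12 pericyte markers 1 (Rgs5) was called lower and 0 higher (adjusted p = 0.0194), a call lost with no minimum level (0.103), without WT 4 (0.0553), without KO 2 (0.0814) and without KO 3 (0.0922). WT 3, the library with the most platelet signal, had the lowest Nkx2-3 level, and the part of such RNA in the Nkx2-3 difference was not tested. Without WT 3 the log2 fold change of Nkx2-3 was 0.13 (limma adjusted p = 0.391).

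The genes whose pattern over the 6 libraries was most like that of each tested member were named by Pearson's r among the 11035 genes tested, as a description. For Nkx2-3 they were Echs1, an enzyme of mitochondrial fatty acid oxidation (r = 0.989), Tmed1, Ubd, 2410015M20Rik and Sf3b5, a splicing factor subunit (r = 0.987). Ubd, a ubiquitin-like gene induced by TNF and interferon, had 6.61, 12.1 and 5.96 RPKM in KO libraries, against 4.99, 1.82 and 2.34 RPKM in WT libraries. For Nkx2-5 they were Ubl7 (r = 0.998), S100a11, Mrpl39, Ifrd1 and Sdc2, and for Tlx1 Slco2b1 (r = 0.988), Pkmyt1, Cks1b, Bgn and Creb3l1. Pkmyt1 and Cks1b encode regulators of the cell cycle kinases and Bgn a matrix proteoglycan. For Tcf21 they were Kazald1 (r = 0.995), Ccnf, C8g, Ucp2 and Nme4. Kazald1, on chromosome 19, is the gene next to Tlx1, while Tcf21 lies on chromosome 10. With Tlx1 itself Kazald1 had an r of 0.923. These genes were picked as the highest of 11035 over 6 libraries, and their r carries no test.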

How the data were processed

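RNA of CD31+ CD45- spleen cells was made into cDNA with SMART-Seq v4 and into libraries with Nextera XT, per the labels' protocols. Tools listed in the submitters' processing notes are STAR (2.5.2b), Subread, limma and edgeR, with mm10 as the build and no settings. The authors deposited RPKM for 23337 genes in 6 columns, per the file headers, and a table of log2 fold changes with p-values. Columns name a genotype and a number other than the labels' replicate numbers, so each was assigned to its genotype only.

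RPKM were whole multiples of 1 read's worth (tolerance 0.001) for 17683 of 17683 genes above 0, which gave reads and depth. The 11035 genes that reached 1 RPKM in 3 or more libraries were tested on log2(RPKM + 0.5), a scale that understates changes of low genes, with limma 3.58.1 in R 4.3.3 (variance trend, Benjamini-Hochberg threshold 0.05). Among the members, counting error is small beside the spread between libraries except for Barx1. That does not hold for every other gene named, since some spreads were no wider than counting error alone would give. Twist1 in KO libraries had an SD of 0.0907 RPKM at a mean of 19.2 RPKM, from 1283 to 1585 reads. Wt1 in WT libraries had an SD of 0.0797 RPKM at a mean of 1.01 RPKM, from 129 to 165 reads. Voom ran on recovered reads without further scaling. The fit was tested on simulated data for 11035 genes, where 6.98% of calls were false. Libraries of 1 genotype had an r of 0.974 to 0.990 with each other, and pairs between genotypes 0.964 to 0.985, so these ranges overlapped. No library was a copy of another (chi-square over its degrees of freedom at least 36.7). Positions came from GENCODE M21 (GRCm38, the same assembly as mm10), promoters from RefSeq GRCm38.p6, matched for 5 of 5 members. Foxf1 (listed under the older symbol Foxf1a), Nkx1-1, Tcf24 and 4 marker genes did not match a symbol in the table and were not counted.

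Members, gene lists and tests were chosen with earlier results of these data known. Named genes were the members, Madcam1, Stab1, Pbx3, Meis1, Wt1, Nkx3-2 and another partner that is not reported here, up to 4 of smallest p per list, the 10 highest homeobox genes and the 5 genes most like each member. Other names (Gata6, Gcnt1, Chst4, Ltbr, Sfrp1, Sfrp2, Aldh1a2, Lbx1 and single markers such as Gpm6a) were chosen after their values were seen.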

Additional observations from a re-analysis of the deposited data

How the results depend on the processing

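The number of genes called, 214, was 77 with no minimum level and 56 to 418 when libraries were left out 1 at a time (93 without WT 4, 83 without KO 2, 56 without KO 3, 418 without KO 4), and it stayed within 1.5 times of 214 in the other alternatives. The count of called members was 0 in all 14. Nkx2-3 and Tcf21 kept their sign in all 14, with log2 fold changes of 0.09 to 0.21 and -0.46 to -0.16. For Nkx2-3 most alternatives could not change the sign, since its KO values were all above its WT values. Nkx2-5 ranged from -0.14 to 0.21 and Tlx1 from -0.30 to 0.06 with a library left out, so neither has a stable sign. The difference of Barx1, -0.07, was 0.05 with a pseudocount of 0.1 and 0.84 with 0.01. In the leave-one-out fits the unadjusted p was under 0.05 for 1 member at most in any fit. The order of the members was the same by median RPKM. Depth limits Barx1, at 0 to 33 reads per library. No paired analysis was possible because the labels name no pairs of KO and WT libraries. The data columns also do not carry the labels' replicate numbers.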

Other observations

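Nkx6-2, an NK homeobox gene known from brain glia and named after its values were seen, was under the minimum level. It had 1.13, 0.959 and 0.591 RPKM in KO libraries, against 0.251, 0.311 and 0.597 RPKM in WT libraries, from 46 to 107 reads in KO and 20 to 52 reads in WT libraries. The groups overlapped by KO 4 and WT 4 alone, and without a minimum level the limma adjusted p was 0.291 (log2 fold change 0.65 ± 0.21 SE).

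The genes flanking the members differed widely in level. Got1 and Slc25a28 beside Nkx2-3 averaged 31.0 and 38.6 RPKM in KO and 27.2 and 45.2 RPKM in WT libraries. Beside Tcf21, Eya4 did not exceed 0.0427 RPKM, and beside Nkx2-5, Kifc5b did not exceed 0.0677 RPKM. Of the 10 flanking genes, 7 were tested, with limma adjusted p of 0.412 or more.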
